A study of Homo sapiens with 6 samples.

Results

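The retinoic acid receptors RARA, RARB and RARG and their partners, the retinoid X receptors RXRA, RXRB and RXRG, were examined in human embryonic stem cells of the naive and the primed state. These 6 genes were taken by symbol from a count table of 63677 genes. The symbols stood in 12 rows, of which 6 held reads, 1 for each gene, and 6 were at 0 in every library (5 of the 6 RXRB rows and 1 of the 2 RXRA rows). The rows used were ENSG00000131759 for RARA, ENSG00000077092 for RARB, ENSG00000172819 for RARG, ENSG00000186350 for RXRA, ENSG00000204231 for RXRB and ENSG00000143171 for RXRG. RNA was sequenced in 6 libraries from the cell lines Royan H6, here RH6, and Royan H5, here RH5, both grown on inactivated mouse embryonic fibroblast feeders. Naive RH6 (2 libraries, passage 10) and naive RH5 (2 libraries, passage 17) came from induction with 2a2iL and were held in 2iL medium afterwards. Primed RH6 (1 library, passage 20) and primed RH5 (1 library, passage 16) grew in bFGF medium. State and medium changed together and cannot be told apart, and passage differed between all the groups. The series title names activation of RARγ, the protein of RARG, and of the orphan receptor NR5A2 in inducing the naive state. The labels used here do not say whether a receptor ligand was still present at harvest.

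The labels do not state whether the naive duplicates were separate cultures. P-values therefore rest only on how far these libraries vary, which may be technical, and a primed library, 1 per line, was taken to vary as the naive duplicates do. Total counts were 13457979 to 14663982 per library. Summed fibroblast markers were at 1444 to 2948 CPM, counts scaled to library size, in naive libraries and 621 to 1178 CPM in primed libraries, with 6 of 11 tested markers higher and 1 lower in naive cells and DCN under 1 CPM in every library. Summed trophectoderm markers were at 605 to 701 CPM in naive and 196 to 223 CPM in primed libraries, with 6 of 10 higher and 1 lower. Of the neural markers, 5 of 10 were lower in naive cells, at 715 to 1158 CPM summed in naive and 722 to 989 CPM in primed libraries. Of the endoderm markers, 2 of 8 were lower, at 33.8 to 56.4 CPM in naive and 25.9 to 88.2 CPM in primed libraries, and AFP stayed under 1 CPM. Pluripotency markers summed to 8235 to 10530 CPM in naive and 12030 to 13240 CPM in primed libraries, with 4 of 10 lower. The part of these markers in the results that follow was not tested.

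RARs are nuclear receptors for all-trans retinoic acid, the active form of vitamin A. They bind DNA as pairs with an RXR, at direct repeats of a short half-site called retinoic acid response elements. Without ligand the pair holds corepressors at the gene, and with ligand it recruits coactivators. RXRs also pair with other nuclear receptors, among them those for thyroid hormone, vitamin D and fatty acids. In pluripotent stem cells retinoic acid is best known as a differentiation signal.

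RARG, the receptor named in the study, was lower in naive cells of both lines. Its level was 17.7 and 21.5 CPM in naive RH6 and 17.5 and 16.3 CPM in naive RH5, against 43.3 CPM in primed RH6 and 32.4 CPM in primed RH5. Both primed libraries stood above all 4 naive libraries, and within the naive state both RH6 libraries were above both RH5 libraries, narrowly for 1 pair. The mean was 18.2 ± 2.25 CPM in naive cells (SD, n = 4) and 37.9 CPM in primed cells (n = 2). Over both lines RARG fell by 1.05 on the log2 scale (SE 0.135), with an adjusted p of 0.00224 in edgeR's quasi-likelihood test. Within RH6 the change, naive over primed, was −1.14 ± 0.153 (SE, edgeR adjusted p = 0.00027), and within RH5 it was −0.94 ± 0.158 (adjusted p = 0.00123). The difference between these, −0.20 ± 0.224, did not pass (edgeR adjusted p = 0.619). In bulk libraries a lower level in each cell and fewer cells with the transcript cannot be told apart. In GENCODE v29 no gene overlaps RARG on either strand.

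RXRA, the RXR with the most reads here, was also lower in naive cells. It stood at 19.8 and 19.4 CPM in naive RH6 and at 22.9 and 24.0 CPM in naive RH5, against 34.1 CPM in primed RH6 and 30.7 CPM in primed RH5. The states did not overlap, and within the naive state both RH5 libraries were above both RH6 libraries. Naive cells averaged 21.5 ± 2.25 CPM (SD, n = 4) and primed cells 32.4 CPM (n = 2), a log2 fold change of −0.60 ± 0.137 (SE, edgeR adjusted p = 0.0197). In RH6 the change was −0.80 ± 0.137 (edgeR adjusted p = 0.00141). In RH5 it was −0.39 ± 0.139 and missed the threshold of 0.05 (edgeR adjusted p = 0.0537, 95% interval −0.698 to −0.0809). The difference of the 2 effects was −0.41 ± 0.197 (edgeR adjusted p = 0.226), so the lines were not shown to differ. The call over both lines was lost without naive RH6 replicate 1, naive RH6 replicate 2 or naive RH5 replicate 1 (edgeR adjusted p = 0.0667, 0.0734 and 0.0626). Without primed RH6 the change was −0.38, which leaves the effect of RH5 alone.

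These were the only 2 of the 6 receptors called in naive against primed over both lines, both lower, while 25.7% of the 19434 genes tested were called in either direction and 13.6% were called lower. In RH6, 3 of 6 receptors were called (RARB higher, RARG and RXRA lower), against 33.6% of all genes. In RH5, 1 of 6 was called (RARG), against 33.5% of all genes. RARB, RARG and RXRA had CPM values that did not overlap between the states, as did 44.3% of all genes tested. With 6 receptors, these shares show nothing particular to the receptors beside the whole table.

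**Figure D1:**
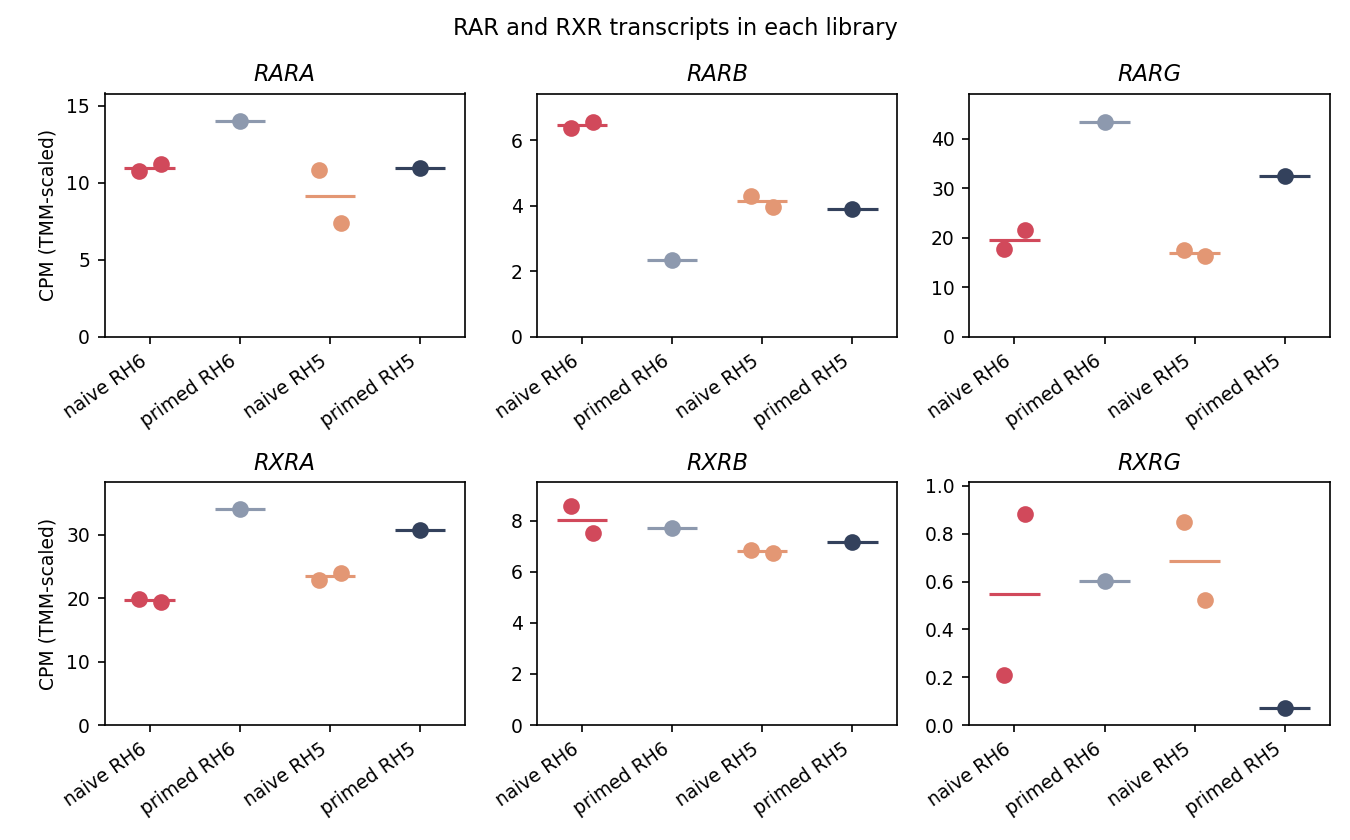
Level of each receptor in each library, in CPM, with naive libraries left of the primed library within each line. RARG and RXRA sit lower in all 4 naive libraries than in both primed libraries, and RARB is lowest in primed RH6 at 2.35 CPM.

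RARB was higher in naive than in primed RH6 cells, and no change was detectable in RH5. It encodes a receptor that is also a textbook target of retinoic acid. It was at 6.38 and 6.55 CPM in naive RH6 and 4.31 and 3.96 CPM in naive RH5, against 2.35 CPM in primed RH6 and 3.91 CPM in primed RH5. The 4 naive libraries were above both primed libraries, but naive RH5 replicate 2 and primed RH5 nearly coincided. Naive over primed in RH6 was 1.46 ± 0.289 on the log2 scale (SE, edgeR adjusted p = 0.0033). In RH5 it was 0.08 ± 0.276 (edgeR adjusted p = 0.851, 95% interval −0.534 to 0.697). Over both lines it was 0.72 ± 0.34 and was not called (edgeR adjusted p = 0.165).

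The difference of RARB's state effect, RH6 minus RH5, was 1.38 ± 0.401 on the log2 scale and narrowly missed the threshold (edgeR adjusted p = 0.0519, range over alternatives 0.033 to 0.338). None of the 6 receptors was called for that difference, where 12% of all genes were. At an unadjusted p under 0.05 RARB alone passed in edgeR, and DESeq2 and limma-voom called none. Without naive RH6 replicate 1 RARB was called (edgeR adjusted p = 0.0449). Between naive RH6 and naive RH5, RARB differed by 0.64 ± 0.213 on the log2 scale, higher in both RH6 libraries than in both RH5 libraries (edgeR adjusted p = 0.0507). That comparison also called none of the 6 receptors, with 25.5% of all genes called. RARB alone was under an unadjusted p of 0.05 there, DESeq2 called none, and limma-voom called 1, RARB (adjusted p = 0.0454). RARB overlaps TOP2B on the opposite strand in GENCODE v29. TOP2B, a DNA topoisomerase, held 6279 to 6789 counts in naive libraries and 6157 to 6223 counts in primed libraries, while RARB held 53 to 91 counts in naive libraries and 35 to 54 counts in primed libraries. The strand setting of the counting is not given in the sources used here, so reads of the 2 genes cannot be told apart.

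The upstream 250 bases of RARB and RARG are given because RARG is the receptor called in every comparison of the states and because a RARB window holds the one response element found among the receptors' promoters. Promoters came from RefSeq (GRCh38.p14), which matched all 6 receptors with 13 windows. Direct repeats of the half-site AGGTCA were searched, with AGTTCA as well as GGGTCA or else GGTTCA allowed in its place, on both strands with 1, 2 or 5 bases between them (DR1, DR2 and DR5). The RARB window lies at chr3:25428013-25428262 on the plus strand, before the 3rd of 4 annotated start sites. Capitals mark the 2 half-sites of a DR5 at positions −53 to −37 from the start. The RARG window lies at chr12:53232210-53232459 on the minus strand, before its 1 annotated start site, and holds none of these repeats. Start sites outside the 13 windows were not searched, for RARG or any other receptor.
RARB upstream: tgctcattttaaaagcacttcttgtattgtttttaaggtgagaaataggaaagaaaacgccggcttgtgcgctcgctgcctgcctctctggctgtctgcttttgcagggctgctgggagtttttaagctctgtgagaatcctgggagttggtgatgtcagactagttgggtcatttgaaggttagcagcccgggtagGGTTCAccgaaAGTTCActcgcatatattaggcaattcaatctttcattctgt
RARG upstream: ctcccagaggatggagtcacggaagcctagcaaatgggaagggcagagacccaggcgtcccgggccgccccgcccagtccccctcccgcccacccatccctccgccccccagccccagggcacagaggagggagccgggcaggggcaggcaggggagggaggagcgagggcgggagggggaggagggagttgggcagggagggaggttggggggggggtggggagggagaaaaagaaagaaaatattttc

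A DR5 of this kind stood in 26 of 35116 upstream windows of all genes (0.074%), a DR1 in 34 (0.0968%) and a DR2 in 11 (0.0313%). The exact RARB repeat was in 1 window. Among 81 genes of the pathway lists described later that had a window, the only one with a repeat was CYP26A1, whose enzyme breaks retinoic acid down, before the 2nd of 2 start sites on chromosome 10. The CYP26A1 repeat lies on the strand opposite to transcription at −90 to −74 and matches that of RARB at 15 of 17 positions.
RARB repeat: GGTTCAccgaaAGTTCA
CYP26A1 repeat: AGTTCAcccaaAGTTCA
A match is a description of letters only. Between the states the genes with the repeat moved in opposite directions in RH6, with log2 fold changes of 1.46 for RARB and −0.75 for CYP26A1 (edgeR). In RH5 RARB showed no detectable change (0.08) and that of CYP26A1 was −2.36. The difference of these effects, RH6 minus RH5, had the same sign for both, 1.38 for RARB (not called) and 1.61 for CYP26A1 (called).

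RARA, the most widely expressed RAR in adult tissues, showed no called change. It was at 10.7 and 11.2 CPM in naive RH6 and 10.8 and 7.39 CPM in naive RH5, against 14.0 CPM in primed RH6 and 10.9 CPM in primed RH5. The states overlapped, and naive RH5 replicate 2 was the lowest library. The primed mean was 12.5 CPM (n = 2). The log2 fold change was −0.31 ± 0.192 (edgeR adjusted p = 0.283), and its 95% interval, −0.763 to 0.143, covers falls larger than RXRA's. RARA overlaps the antisense gene RARA-AS1, which held 0 to 4 counts per library.

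RXRB was level between the states. It was at 8.55 and 7.51 CPM in naive RH6 and 6.86 and 6.72 CPM in naive RH5, against 7.72 CPM in primed RH6 and 7.17 CPM in primed RH5. The log2 fold change was −0.01 ± 0.174, with a 95% interval of −0.422 to 0.402 (edgeR adjusted p = 0.975). RXRB overlaps SLC39A7, a zinc transporter gene, on the opposite strand. SLC39A7 held 973 to 1098 counts in naive libraries and 880 to 931 counts in primed libraries, and without the strand setting its reads cannot be told apart from RXRB's 90 to 122 counts in naive and 99 to 115 counts in primed libraries.

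RXRG, the RXR of retina and muscle in textbook accounts, was near the detection floor. It had 3 and 12 counts in naive RH6 and 12 and 7 counts in naive RH5, against 9 counts in primed RH6 and 1 count in primed RH5, or 0.0724 to 0.883 CPM over all libraries. The states overlapped. The rate in naive over primed RH5 was 9.53 (95% counting interval 1.51 to 396), on 19 against 1 counts, and in RH6 it was 0.892 (0.366 to 2.31), on 15 against 9 counts. RXRG was not called in RH5 (edgeR adjusted p = 0.0897) or over both lines (edgeR adjusted p = 0.5).

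**Figure D2:**
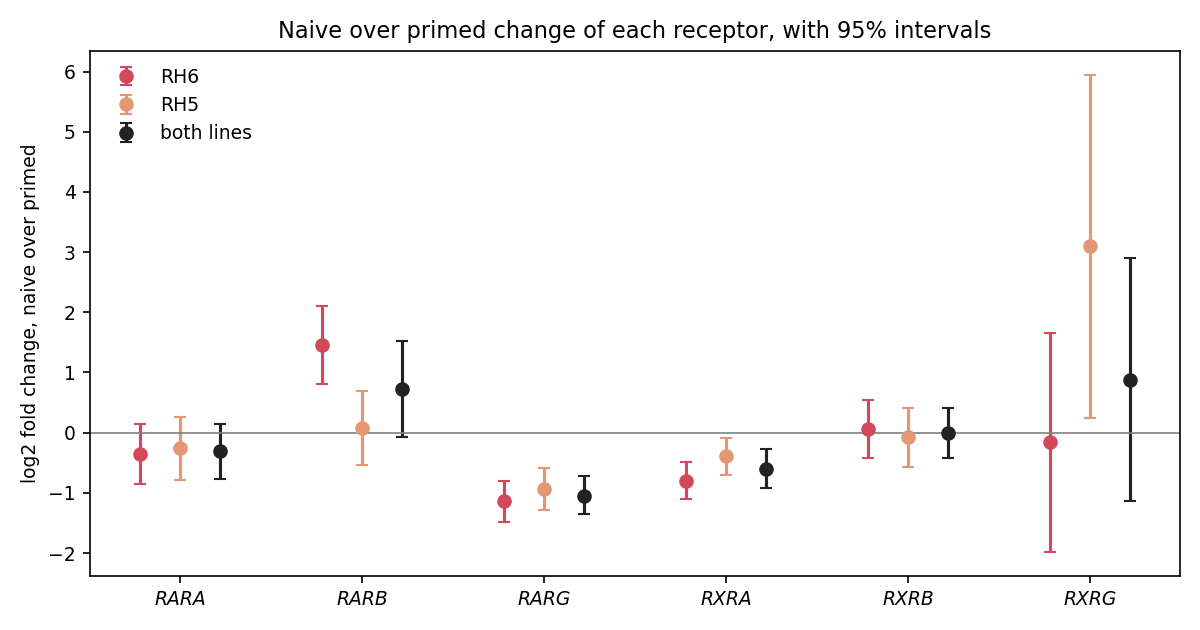
Log2 fold change of naive over primed for each receptor in RH6, in RH5 and over both lines (points), with 95% intervals from edgeR. RARG's intervals lie below 0 throughout, RARB's lies above 0 in RH6 only, RXRG's lies above 0 in RH5 without being called, and RXRG, with 44 counts in all, has the widest intervals of the 6.

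To compare genes with each other, CPM was divided by gene length, taken as the union of exons in GENCODE v29 in kilobases. Per kilobase, RARG was highest, at 3.56 ± 0.439 CPM per kb in naive cells (SD, n = 4) and 7.39 CPM per kb in primed cells (n = 2). In naive cells RARA at 2.12, RXRA at 1.94, RXRB at 1.89 and RARB at 1.43 CPM per kb followed, and the ranges of RARA, RXRA and RXRB overlapped. RARB's range, 1.07 to 1.77 CPM per kb, overlapped those 3, and RXRG was at 0.229 CPM per kb. In primed cells RXRA at 2.92 and RARA at 2.64 overlapped, followed by RXRB at 1.90, RARB at 0.847 and RXRG at 0.125 CPM per kb. Within the RAR family RARG held 46.4 to 54.7% of the summed level per kb in naive libraries and 65.3 to 70.1% in primed libraries. RARB held 17.01 to 23.2% in naive and 5.27 to 10.9% in primed libraries, and RARA 26.9 to 33.3% in naive and 23.8 to 24.6% in primed libraries. Within the RXR family RXRA held 43.9 to 53.1% in naive and 58.4 to 59.9% in primed libraries, and RXRB 42.1 to 53.9% in naive and 37.4 to 39.5% in primed libraries. Division by the longest transcript instead, chosen after seeing the data, put RARG at 51.7 to 59.7% in naive and 69.3 to 73.2% in primed libraries. It put RXRA at 53.1 to 62.0% in naive and 66.9 to 68.1% in primed libraries, above RXRB in both states.

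**Figure D3:**
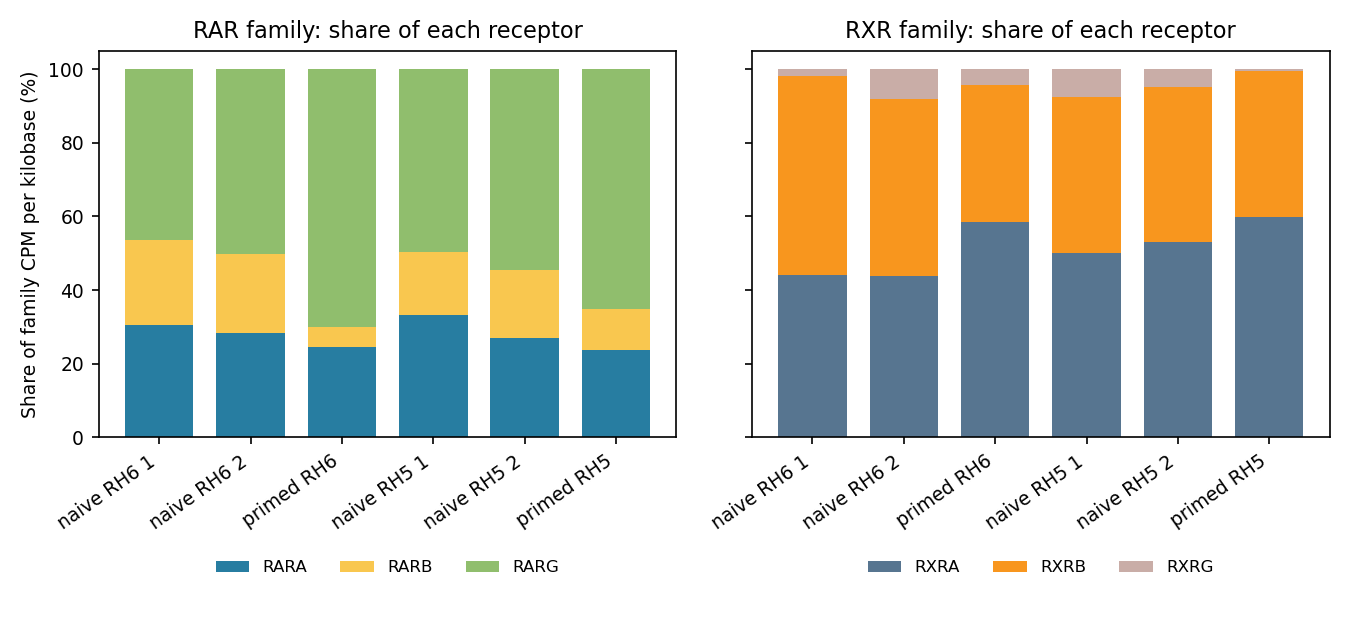
Share of each receptor in its family's summed CPM per kilobase, for each library, with the RAR family on the left and the RXR family on the right and the naive libraries left of the primed one in each line. RARG takes 46.4 to 54.7% of the RAR level in naive libraries and 65.3 to 70.1% in primed libraries.

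A ratio inside a library does not depend on how libraries were scaled. The log2 ratio of RARG to RARA counts was 0.87 ± 0.207 in naive (SD, n = 4) and 1.60 in primed libraries (n = 2), a difference of −0.72. The log2 ratio of RXRA to RXRB counts was 1.54 ± 0.294 in naive and 2.12 in primed libraries, a difference of −0.58. For both, the naive values were all below the primed values. The exact two-sided permutation p, taken by doubling the smaller tail, was 0.133 for each. That is the smallest this rule can give with 4 against 2 libraries. A ratio shows that 2 genes changed unequally, not which one did.

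For each receptor the 3 tested genes with the most similar pattern were found by the root mean square difference of log2 CPM, centred on each gene's mean, over the 6 libraries. For RARG they were ARMC4 (0.0591), KLHL17 (0.0733) and MEGF11 (0.0807). For RXRA they were ARMCX6 (0.0318), PLXNB2 (0.0434) and ZMYND8 (0.0468). For RARB they were TMTC1 (0.0559), SRD5A3 (0.0893) and TNRC18 (0.091). For RARA they were EEF1A1P19 (0.046), a pseudogene whose reads may be shared with its parent gene, TRIM16 (0.0657) and COG7 (0.0754). For RXRB they were DSCR3 (0.0161), SMYD3 (0.029) and DDX20 (0.0303). RXRG's nearest genes were less alike, RP1-313I6.12 (0.297), Y_RNA (0.314) and SPINK2 (0.317).

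The other genes of the pathway were described from 6 lists, beside 12.1% of all genes called higher in naive cells and 13.6% called lower. Where a list's count is given under another setting, the count over all genes changed as well, as the closing section describes. A fit without a primed library leaves only the state effect of the other line. Of the other partners of RXR, 9 of 13 were tested, 0 were called higher and 3 lower in naive cells, with a median log2 fold change of −0.281, against −0.0065 for all genes tested. NR4A2, an orphan receptor that pairs with RXR, fell by 1.51 ± 0.4 on the log2 scale (edgeR adjusted p = 0.0327). PPARA, a receptor for fatty acids, fell by 1.12 ± 0.271 (edgeR adjusted p = 0.0239), and THRB, a thyroid hormone receptor chosen after its values were seen, fell by 1.01 ± 0.17 (edgeR adjusted p = 0.00633). THRB was at 11.3 ± 1.13 CPM in naive cells (SD, n = 4) and 22.7 CPM in primed cells (n = 2). PPARA lost its call without either naive RH6 library, naive RH5 replicate 2 or primed RH6 (edgeR adjusted p = 0.0631 to 0.0785). NR4A2 lost its call without any 1 of the 4 naive libraries (edgeR adjusted p = 0.057 to 0.0942) and with no line term (−1.16, adjusted p = 0.384). With each line's naive libraries summed, 0 of these partners were called (edgeR adjusted p = 0.106 for THRB and 0.156 for the other two). The number of partners called was 1 without either naive RH6 library or naive RH5 replicate 2, and 5 without either primed library, of which 2 were higher without primed RH6.

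Among corepressors 11 of 13 were tested, 1 was called higher and 0 lower, with a median of −0.0536. The 1 was NRIP1, a corepressor that ligand-bound receptors recruit, at 254 ± 38.6 CPM in naive cells (SD, n = 4) and 88.1 CPM in primed cells (n = 2). NRIP1 rose by 1.51 ± 0.134 on the log2 scale (edgeR adjusted p = 0.000557), by 1.30 in RH6 and by 1.74 in RH5. All 14 coactivators were tested and edgeR called 0, with a median of −0.0929. At an unadjusted p under 0.05, 1 of 14 coactivators passed, and DESeq2 and limma-voom called 0. The number of coactivators called was 1 without primed RH6 and 4 without primed RH5, and that of corepressors was 4 and 2.

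Retinoic acid response genes spread over the widest range of the 6 lists. Of 27 listed, 22 were tested, 7 were called higher and 3 lower, with a median log2 fold change of 0.642 over both lines, 0.246 in RH6 and 1.11 in RH5. CDX1, a homeobox gene of axial patterning, held 149 counts over the naive RH6 libraries and 409 over the naive RH5 libraries, against 1 count in each primed library. The naive rate of CDX1 was 145 times the primed rate (95% counting interval 39.9 to 1200). HOXB1, a homeobox gene of the hindbrain, was at 6.66 and 8.02 CPM in naive RH6 and 44.0 and 67.5 CPM in naive RH5, against 0.872 CPM in primed RH6 and 0.145 CPM in primed RH5. Its log2 fold change was 5.39 ± 0.935 (edgeR adjusted p = 0.00708). Further genes called higher, chosen after their values were seen, included HOXB2, HOXB4, TGM2 and GBX2, at 4.94, 2.88, 2.59 and 2.17 on the log2 scale. GBX2 changed by 0.99 in RH6 and 3.56 in RH5. Over both lines it lost its call without naive RH6 replicate 2 or either naive RH5 library (edgeR adjusted p = 0.0621 to 0.0705), with no line term (0.0637) and with summed naive libraries (0.112). With naive libraries summed, 5 response genes were called, 4 higher and 1 lower.

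Of the response genes called lower, RARRES2, which encodes the secreted protein chemerin, was at 4.85 ± 1.86 CPM in naive cells (SD, n = 4) and 33.7 CPM in primed cells (n = 2). It fell by 2.79 ± 0.321 on the log2 scale (edgeR adjusted p = 0.00144). CYP26A1 was at 131 and 128 CPM in naive RH6 and 23.6 and 21.3 CPM in naive RH5, against 217 CPM in primed RH6 and 115 CPM in primed RH5. It fell by 1.61 ± 0.317 on the log2 scale over both lines (edgeR adjusted p = 0.0114). The change was −0.75 in RH6 and −2.36 in RH5, lower in each line. The call of CYP26A1 over both lines was lost with no line term (−1.13, edgeR adjusted p = 0.353), with each line's naive libraries summed (−1.53, 0.0966) and without naive RH5 replicate 1 (−1.48, 0.0503). The third, DHRS3, an enzyme that lowers retinaldehyde and was chosen after its values were seen, fell by 0.98 ± 0.214 (edgeR adjusted p = 0.0164). Its change was −1.31 in RH6 and −0.63 in RH5. Over both lines it lost its call without either naive RH6 library or naive RH5 replicate 1 (edgeR adjusted p = 0.0564 to 0.0689). Retinoic acid response genes thus moved both ways in the same libraries in which RARG was lower. The homeobox genes of the list are also used in other lineages, and the part of the other cell types in their levels was not tested.

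Of 20 genes of retinoid synthesis and binding, 19 were found and 13 tested, 1 was called higher and 1 lower, with a median of 0.00284. The number called was 5 (3 higher, 2 lower) without primed RH6 and 6 (5 higher, 1 lower) without primed RH5. It was 1 without either naive RH6 library or naive RH5 replicate 1, and 5 without the low-count filter. RBP7, a cellular retinol-binding protein, was near the floor, with 7 counts over the naive libraries and 25 over the primed ones, and fell by 2.70 ± 0.756 (edgeR adjusted p = 0.039). RBP7 lost its call without either naive RH6 library, naive RH5 replicate 1 or either primed library (edgeR adjusted p = 0.0654 to 0.117), and in DESeq2 (0.093), with no line term (0.0506) and with summed naive libraries (0.0852).

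Of a list of other nuclear receptors, most of which bind related elements, 11 of 14 were tested, 2 were called higher and 1 lower, with a median of −0.0526. The number called was 7 (5 higher, 2 lower) without primed RH5, 5 without the low-count filter and 0 with summed naive libraries. NR0B1, an orphan receptor that lacks a classical DNA-binding domain, held 90 counts over the naive libraries and 5 over the primed ones, a log2 fold change of 3.17 ± 0.579 (edgeR adjusted p = 0.00864). ESRRA, an estrogen-related receptor, rose by 0.49 ± 0.147 (edgeR adjusted p = 0.0485) and held that call in 3 of 13 alternatives, losing it without any 1 library other than primed RH5 (adjusted p = 0.0983 to 0.134). RORB, an orphan receptor of neural tissue, fell by 1.80 ± 0.313 (edgeR adjusted p = 0.00713). NR5A2, the other receptor named in the series title, was at 49.1 and 48.1 CPM in naive RH6 and 22 and 21.7 CPM in naive RH5, against 9.53 CPM in primed RH6 and 16.1 CPM in primed RH5. Its log2 fold change was 2.35 in RH6 and 0.44 in RH5, and edgeR called it higher in each line. The change over both lines, 1.30 ± 0.404, was not called (edgeR adjusted p = 0.0542) and was called in 5 of 13 alternatives. With every library kept it was called by DESeq2 (1.30, adjusted p = 0.00437), by limma-voom (1.51, 0.0239) and in edgeR without the low-count filter (1.32, 0.000731). The rest of the 5 were the edgeR fits without primed RH6 (0.45) and without primed RH5 (2.38), which repeat the effects within RH5 and within RH6.

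**Figure D4:**
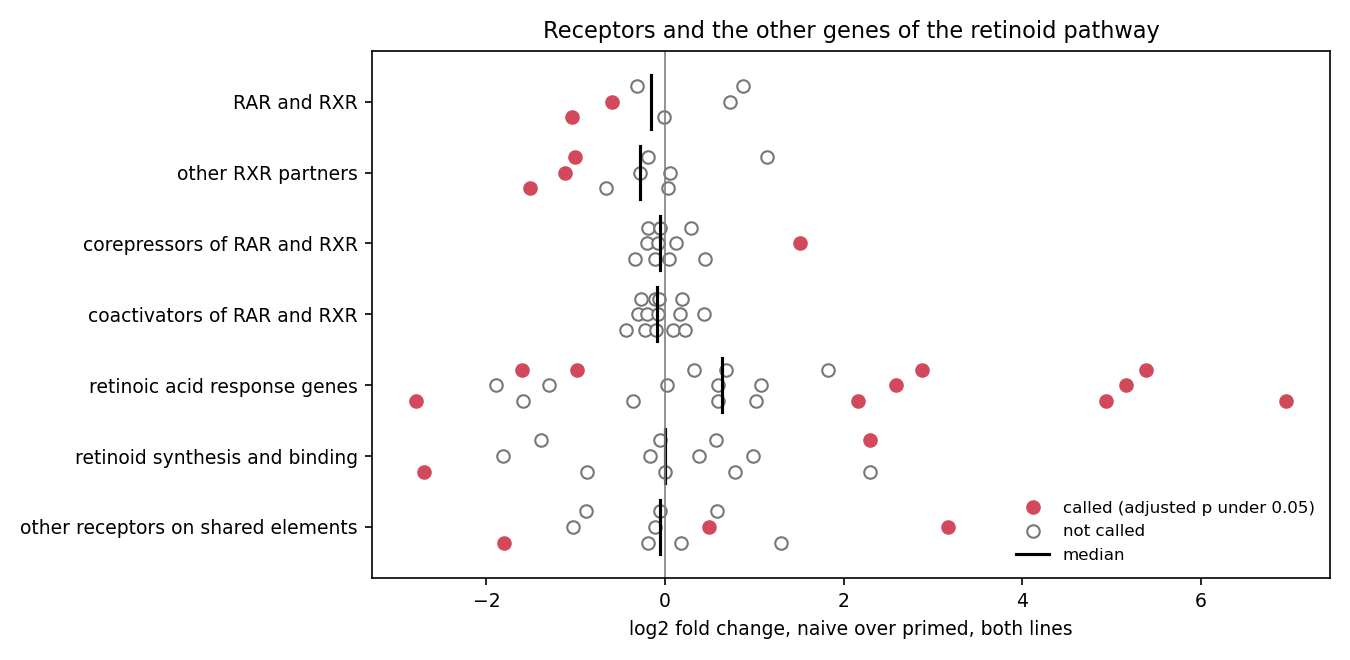
Log2 fold change of naive over primed over both lines for the 6 receptors and every tested gene of the 6 pathway lists, with called genes marked and each list's median drawn. The retinoic acid response genes spread widest, with a median of 0.642, and the other lists centre near 0 or below it.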

How the data were processed

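RNA sequencing counts were analysed from 6 libraries. For each of 63677 genes the authors deposited an unnormalized whole-number count of reads. Per the submitters' processing notes, FastQC, STAR 2.4.0a, featureCounts 1.4.5-p1, Subread and DESeq2 were named, with the builds hg19 and GRCh37.p5 and no roles. Per the labels' protocols, the kit was a stranded total RNA kit, while the molecule field names polyA RNA. Neither the annotation nor the strand setting of the counting is stated in the labels. Gene lengths and neighbours came from GENCODE v29, another build, so no coordinates were taken from it. All 12 rows named for a receptor were read, and the 6 with counts were used.

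The tests were edgeR's quasi-likelihood tests (edgeR 4.0.16, R 4.3.3) with TMM factors (0.9644 to 1.029) on genes passing filterByExpr (minimum count 10, minimum total 15), which kept 19434 genes. All 6 receptors passed. CPM are counts per 1000000 of the TMM-scaled library size. Naive against primed over both lines was adjusted for line (3 residual degrees of freedom, biological coefficient of variation 0.189). Contrasts within a line and between lines used 1 mean for each group (2 residual degrees of freedom, biological coefficient of variation 0.0964). P-values were two-sided and adjusted by the Benjamini-Hochberg method over all genes tested, with calls made at an adjusted p under 0.05. Count ratios have exact 95% intervals, and these cover counting error only. For similar patterns, a prior count of 2 was added before log2 CPM.

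The receptors, the gene lists and the tests were chosen with earlier results of these data known. Named genes were the 6 receptors, the 3 genes nearest in pattern to each, the 2 called genes with the largest rise and the 2 with the largest fall in each list, NR5A2, and neighbours within 10 kb. Some genes of the lists that this rule or the counts would name are not reported here. Duplicates differed by more than counting noise (chi-square per gene 9.22 for naive RH6 and 5.76 for naive RH5) and were kept separate. On simulated data, the test of naive against primed over both lines recovered 98% of genes changed 2-fold and 100% of those changed 4-fold, with 7.04% of calls false, over 18693 genes. That of naive RH6 against naive RH5 had 16.7% of calls false, over 18711 genes, and that of the difference between lines recovered 59% of 2-fold changes, over 18717 genes. The simulated spread was that around group means (biological coefficient of variation 0.0964), with no other difference between the lines. Recovery at the 0.189 of the fit over both lines was therefore not measured and may be lower. Changed genes lay above a floor of mean counts that RXRG did not reach. Alternatives were RLE and upper-quartile factors, no low-count filter, DESeq2 1.42.0, limma-voom (limma 3.58.1), each library left out in turn, no line term, summed naive libraries, a replicate block, and other lengths.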

Additional observations from a re-analysis of the deposited data

Results flagged for a closer look

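In 2 of 24 genes examined, 1 of the 4 naive libraries stood apart from the other 3. Chance gives about 1 such gene in 20 where all 4 values come from 1 normal distribution. These libraries came from 2 lines, so that rate need not hold here. For RARA the gap of naive RH5 replicate 2, at 7.39 CPM, to the next library was 0.879 of the whole naive range. For DHRS3 the gap of naive RH5 replicate 2, at 12.2 CPM, was 0.92 of that range, with the other 3 at 8.70 to 8.98 CPM.

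The naive over primed effect differed between the lines in edgeR's interaction test for 4 of 24 genes, none of them an RAR or RXR gene, beside 12% of all genes. RH6 minus RH5, on the log2 scale, it was 1.91 for NR5A2 (adjusted p = 0.000367) and 1.61 for CYP26A1 (adjusted p = 0.000264). It was −5.44 for HOXB1 (adjusted p = 0.00939) and −2.56 for GBX2 (adjusted p = 0.000159). Most of the 24 genes were named for their changes in these same data, so the count shows nothing particular to them.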

How the results depend on the processing

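RARG was called lower over both lines in 12 of 13 alternatives, at −0.93 to −1.13 on the log2 scale, and missed when each line's naive libraries were summed (−1.03, edgeR adjusted p = 0.0583). It was called in 9 of 9 alternatives in each line. RXRA was called over both lines in 8 of 13, at −0.38 (without primed RH6) to −0.77 (without primed RH5). For each receptor the 13 include the fits without a primed library, each of which leaves the state effect of the other line alone. RARB was called in RH6 in 9 of 9. Over both lines RARB was 0.09 without primed RH6 and 1.49 without primed RH5 (edgeR adjusted p = 0.00233), since leaving out a primed library leaves the effect of the other line. Of 6 receptors, 2 were called over both lines, and 0 with the naive libraries summed, where 1127 genes were called against 4996. Leaving out 1 library gave 1 to 3 receptors (3 without primed RH5, with RARB) and 2961 to 6704 genes. In RH5, 1 receptor was called, 2 with upper-quartile factors (RXRA), 2 without the low-count filter (RXRG) and 1 to 3 with 1 library left out (RXRA, RXRG or both beside RARG). For the difference between lines 0 were called, 1 without the filter and 0 to 1 with 1 library left out, in each case RARB. Between naive RH6 and naive RH5 0 were called, and 1, RARB, without the filter (adjusted p = 0.046), with limma-voom (0.0454) and with the replicate block (0.0108). DESeq2 called 4036 genes against 6528 in RH6, 3936 against 6506 in RH5, 1305 against 2337 for the difference and 2856 against 4952 between naive lines. Upper-quartile factors moved the median of all genes to −0.0886 over both lines and −0.106 in RH6. The cause of these shifts was not tested.

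The direction reversed only for receptors that were not called. Over both lines RXRB ranged from −0.0706 to 0.0863 and RXRG from −0.126 to 3.10 with 1 library left out. In RH6 those ranges were −0.0428 to 0.15 for RXRB and −0.17 to 0.54 for RXRG. For RARA they were −0.37 to 0.19 in the difference and −0.0152 to 0.55 between naive lines, and for RXRG −0.67 to 0.35 between naive lines. Over both lines RXRB was 0.0068 without the filter, 0.00046 in DESeq2 and 0.0070 with summed libraries, and in RH6 it was −0.0390 with upper-quartile factors. The within-library ratios kept their sign in every alternative, at −0.66 to −0.81 for RARG over RARA and −0.47 to −0.68 for RXRA over RXRB. Replicate numbers are not stated to pair the lines. Same-numbered naive libraries deviated together with a correlation of 0.14 across 19434 genes. With 2 pairs only, this cannot show whether they shared more than a number, and the main fit has no block. The replicate block, fitted on the 4 naive libraries alone with 18220 genes tested, called 7405 genes between naive lines, against 4952 in the main fit. Of the values for single genes, lists and family shares, 502 were unchanged in status, 17 gained a call, 52 lost it, 13 reversed and 30 moved. The 502 include genes called in neither setting, and family shares, which carry no call.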
